A study of Mus musculus with 2 samples.

Results

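The Meis, Pbx and Pknox genes encode homeodomain cofactors of the TALE class, and 8 of them were followed here: Meis1, Meis2, Meis3, Pbx2, Pbx3, Pbx4, Pknox1 and Pknox2. The members were picked by gene symbol, in a set drawn up with earlier results of these data known, and all 8 had rows among the 22072 gene symbols of the deposited tables. Not every Pbx family gene is in the set. The RNA came from mouse embryonic tongue of mixed strain background at embryonic day 12, and each of 2 genotypes gave 1 library. The control (Osr1f/+) carried a conditional, floxed allele of the zinc finger gene Osr1 beside a wild-type allele, with no Cre named. The mutant (Osr1f/-; Wnt1cre) carried the floxed allele over a null allele, together with a Cre driven by Wnt1, which acts in the neural crest lineage, so other cells kept the floxed allele and carried the null allele. Per the series' text, the RNA was extracted from pooled tongues, with 3 control-mutant pairs in the pools. No replicate library was analysed, so nothing was tested between the genotypes and every comparison is of 2 libraries. In a bulk tissue, fewer cells of a type and less RNA per cell cannot be told apart.

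TALE homeodomains carry extra residues in a loop between helices. Pbx proteins bind DNA together with Hox proteins and other homeodomain factors, which sharpens the choice of site. Meis and Pknox proteins bind Pbx through a domain near the amino terminus, help to hold Pbx in the nucleus and can join Hox and Pbx on DNA as a further partner. In the head, Meis2 is needed in cranial neural crest, the source of much of the facial skeleton and of the connective tissue of the tongue, and Pbx genes are needed for the growth and fusion of the facial prominences.

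Values are in FPKM, fragments divided by transcript length and by the size of the library, summed over the transcripts of a gene. This scale is per length, so levels of different genes can be set side by side. Depth, estimated from the deposited coverage, was about 18900000 mapped reads in control and 23100000 in mutant tongue. Each ratio of mutant over control is given with a 95% interval from the estimated reads (exact conditional, Clopper-Pearson), which covers counting error alone (amplified reads are not independent molecules) and holds no variation between embryos. For genes of several transcripts, the interval belongs to the ratio of summed estimated reads, scaled for depth, and is not centred on the FPKM ratio. Osr1, the targeted gene (mm9 chromosome 12, 9581248 to 9588306), had 56.8 FPKM in control and 18.4 FPKM in mutant tongue, a ratio of 0.325 (interval 0.30 to 0.352). The floxed part of the gene is not stated in the labels, so reads from any remaining part are included.

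The sequences that set the main Meis transcripts apart are shown first, because the estimated shares of single transcripts differed more between the libraries than the sums did. Meis1 and Meis2 both have an exon of 95 nt that is spliced in or left out near the 3′ end of the reading frame. The deposited rows reflect it: the Meis1 transcripts are 3441 and 3346 nt long, and the Meis2 rows of 4716 and 4621 nt, like those of 4737 and 4642 nt, differ by the same 95 nt. In GENCODE M21 on GRCm38, matched by RefSeq accession, the exon is number 12 of 13 in both genes, at chromosome 11, 18883988 to 18884082 for Meis1 and chromosome 2, 115866810 to 115866904 for Meis2, on the minus strand. These positions are on another build than the mm9 positions of the files. Below is the coding part of the exon, 5′ to 3′, with the stop codon in capitals.
Meis1: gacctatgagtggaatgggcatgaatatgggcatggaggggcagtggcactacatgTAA
Meis2: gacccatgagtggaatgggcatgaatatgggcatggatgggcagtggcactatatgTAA

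Of these 59 bases, 56 were identical in the 2 genes (94.9%). The differences, with the base of Meis1 first, the position counted from 1 at the first base of the exon and then the base of Meis2, were T5C, G38T and C53T. A transcript with the exon therefore ends its reading frame inside it and encodes 390 codons in Meis1. Without the exon, the frame runs on into the last exon for a longer carboxy-terminal tail, 465 codons in all for Meis1. For the 4 Meis2 transcripts from the start farther upstream the lengths are 394 or 401 codons with the exon and 470 or 477 without it, and the 2 from the other start, both with the exon, have 393 and 400. Both forms keep the homeodomain, as is known for these proteins. The junctions without the exon read as follows, with the first bases of the last exon in capitals.
Meis1 junction: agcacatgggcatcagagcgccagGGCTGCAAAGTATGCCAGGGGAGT
Meis2 junction: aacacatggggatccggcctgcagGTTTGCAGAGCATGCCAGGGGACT

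Meis2 has a second choice 1 exon earlier, a segment of 21 nt at the start of exon 11 (GRCm38 chromosome 2, 115867359 to 115867379), which adds codons without a change of frame. It is in capitals here, between the bases that flank it in the spliced transcript.
Meis2 segment: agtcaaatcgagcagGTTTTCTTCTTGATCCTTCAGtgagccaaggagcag

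The summed levels of these genes were close in the 2 libraries. Of the 8 members, 7 reached 1 FPKM in either library and had usable rows. Among these 7, Meis1, Meis2, Pbx3 and Pknox2 were higher in the mutant library and Meis3, Pbx2 and Pknox1 were lower, with ratios from 0.904 to 1.16. Their median log2 ratio of FPKM plus 1 was 0.04, beside 0.0035 over all 12383 genes measured by the same rule. Of those 12383 genes, 6336 were higher and 6046 lower. None of the 7 reached a 1.2-fold difference on FPKM plus 1, which 4.77% of all measured genes reached as higher and 3.46% as lower. At 1.1-fold, Meis1, Meis2 and Pbx3 were past the threshold as higher and no member as lower, where 14.2% of all genes were higher and 12% lower. The counting interval lay above 1 for Meis1, Meis2 and Pbx3, and it held 1 for Meis3, Pbx2 and Pknox2. For Pknox1, at a ratio of estimated reads of 0.899, it lay only just below 1. Over all measured genes 10.7% had an interval above 1 and 10.2% below 1. Among genes of 300 to 5000 mean reads, the range that holds these 7, the shares were 11.5% and 10.7%.

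**Figure D1:**
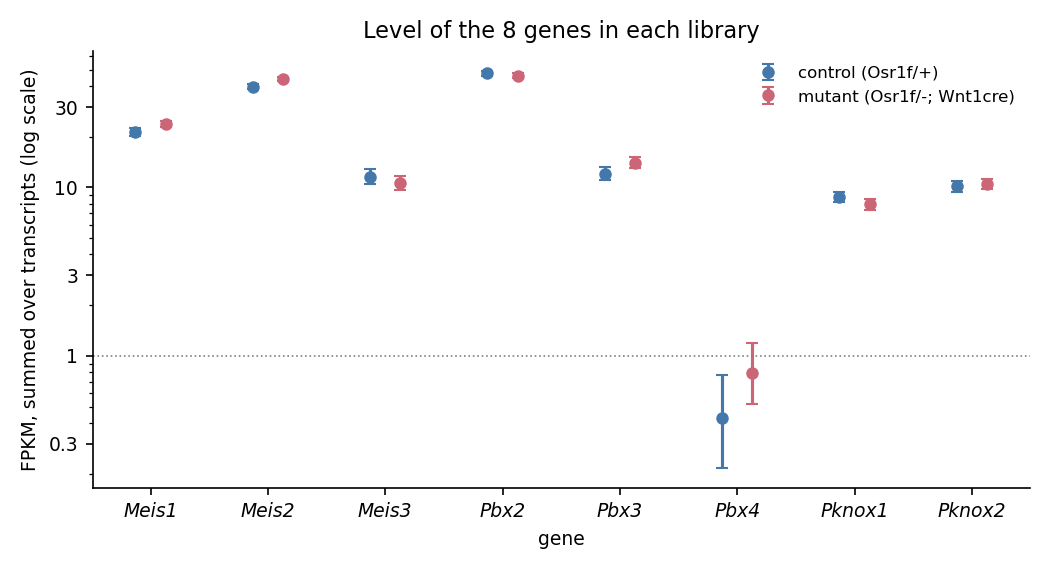
FPKM of the 8 genes (y axis, log scale) in the control and mutant library, 1 point per library, with bars for the 95% counting interval and a dotted line at 1 FPKM. Pbx2 and Meis2 are the highest in both libraries, and Pbx4 lies under 1 FPKM in both.

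Meis genes encode the partners that bring Pbx into the nucleus. Meis2 (mm9 chromosome 2, 115687000 to 115890794) was the highest of them, with 39.7 FPKM in control and 44.1 FPKM in mutant tongue. The ratio was 1.11 (1.06 to 1.16), from about 3546 and 4816 reads. Meis1 (chromosome 11, 18780431 to 18918972), best known for its part in blood stem cells and the eye, reached 21.4 and 23.8 FPKM, for a ratio of 1.11 (1.04 to 1.2). Both were thus higher in the mutant library by about the same factor, beyond counting error but within a range that many genes shared: 22.9% and 23.1% of all measured genes had a larger log2 ratio in either direction. Meis3 (chromosome 7, 16760729 to 16771852), a factor of hindbrain patterning, had 11.6 and 10.6 FPKM. Its ratio of 0.919 (0.80 to 1.06) was within counting error.

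Pbx genes encode the direct partners of Hox proteins. Pbx2 (chromosome 17, 34729416 to 34734286) was the most abundant member in both libraries, at 47.4 FPKM in control and 45.9 FPKM in mutant tongue. The ratio was 0.968 (0.918 to 1.02), within counting error. Its gene model lies 520 bp from that of Ager, which had 2.30 and 2.16 FPKM, and overlaps no other model. Pbx3 (chromosome 2, 34027429 to 34227556), a gene needed for breathing at birth, reached 12.1 and 14.0 FPKM. At 1.16 (1.04 to 1.30), from about 545 and 776 reads, its ratio was the highest of the 7 measured members, and 13.8% of all measured genes had a larger log2 ratio in either direction. Pbx4 (chromosome 8, 72356603 to 72396191), which in adults is a gene of the testis, had 0.428 and 0.796 FPKM, from about 11 and 25 reads. The 3 reads taken as the floor would amount to 0.118 FPKM in control and 0.0964 FPKM in mutant tongue, so both values lay above it. The ratio of 1.86 had an interval of 0.881 to 4.18, so a difference was not detectable at this depth.

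Pknox genes, also called Prep, encode a second kind of Pbx partner. Pknox1 (chromosome 17, 31701718 to 31744638) had 8.77 FPKM in control and 7.94 FPKM in mutant tongue, a ratio of 0.904 (0.811 to 0.997). Its interval, which belongs to a ratio of estimated reads of 0.899, only just left out 1. Pknox2 (chromosome 9, 36698567 to 36954899) reached 10.2 and 10.5 FPKM, for a ratio of 1.03 (0.93 to 1.14), within counting error.

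**Figure D2:**
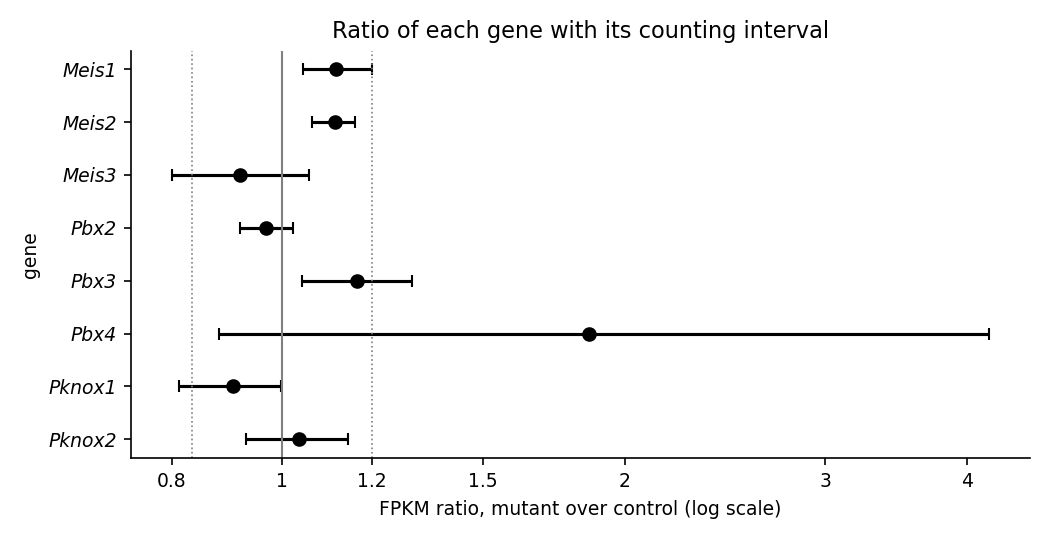
FPKM ratio of mutant over control for each gene (x axis, log scale), with bars for the 95% counting interval, a solid line at 1 and dotted lines at a 1.2-fold difference in either direction. The points of Meis1, Meis2 and Pbx3 lie between 1.11 and 1.16, while the interval of Pbx4 runs from 0.881 to 4.18.

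Ordered by level, both libraries gave the same sequence: Pbx2, Meis2, Meis1, Pbx3, Meis3, Pknox2, Pknox1 and Pbx4. In the control library the counting intervals of neighbours overlapped for Pbx3 and Meis3, for Meis3 and Pknox2, and for Pknox2 and Pknox1. In the mutant library they overlapped for Pbx2 and Meis2, and for Meis3 and Pknox2. The gap between Pbx2 and Meis2 was thus narrower in the mutant library, and that between Pbx3 and Meis3 wider. Summed by family, the 3 Meis genes came to 72.6 FPKM in control and 78.6 FPKM in mutant tongue, a ratio of 1.08. The 3 Pbx genes came to 59.9 and 60.8 FPKM, and the 2 Pknox genes to 18.9 and 18.4 FPKM. Pbx2 ranked above 94.9% of all symbols with usable rows in the control library, Meis2 above 93.7% and Meis1 above 85.9%.

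The transcripts of Meis1 differed more than its sum. The form with the 95 nt exon, shown above with its stop codon, had 17.4 FPKM in control and 22.6 FPKM in mutant tongue. The form without it, which has the longer tail, had 3.96 and 1.22 FPKM, a ratio of 0.308. Its share of Meis1 was 18.5% in control and 5.12% in mutant tongue. Few reads tell the forms apart. At the deposited coverage about 19 reads lay over any base of Meis1 in control and 26 in mutant tongue, and the form without the exon accounts for about 4 and 1 of them. Taken as counts, these give shares with 95% Wilson intervals of 8.51% to 43.3% and 0.682% to 18.9%, which overlap.

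In Meis2 the shares by the same exon differed in the opposite direction. Transcripts with the exon had 34.9 FPKM in control and 33.5 FPKM in mutant tongue, summed over 4 rows. Those without it, summed over 2 rows, had 4.80 and 10.7 FPKM, a ratio of 2.22. Their share of Meis2 was 12.1% in control and 24.1% in mutant tongue. By this grouping, only the sum of the long-tailed forms was higher. Single rows with the exon went both ways, as given below. Both long-tailed rows were higher, NM_010825 at 2.61 and 5.44 FPKM and NM_001159568 at 2.19 and 5.21 FPKM. About 4 of 35 reads over a base in the control and 12 of 48 in the mutant library would be without the exon, with Wilson intervals of 4.54% to 26.0% and 14.9% to 38.8%, which overlap as well. Whether the opposite differences of Meis1 and Meis2 exceed those between embryos was not tested.

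The 21 nt segment of Meis2 held a smaller share in the mutant library. Rows with it held 47.2% of Meis2 in control and 36.9% in mutant tongue, or 18.7 and 16.3 FPKM. The 3 rows with the segment did not share a direction. NM_001159567, which has both the segment and the exon, had 14.9 FPKM in control and 9.15 FPKM in mutant tongue. NM_001159568, with the segment and without the exon, was higher instead, at 2.19 and 5.21 FPKM, and NM_001159569 had 1.64 and 1.91 FPKM. NM_001136072, with the exon and without the segment, was the leading row in both, at 16.5 and 20.7 FPKM. Wilson intervals of the share without the segment, 38.2% to 69.5% and 48.4% to 74.8%, overlap. The shares by start of transcription were close: the 4 rows from the start farther upstream held 91.3% and 91.7% of Meis2.

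**Figure D3:**
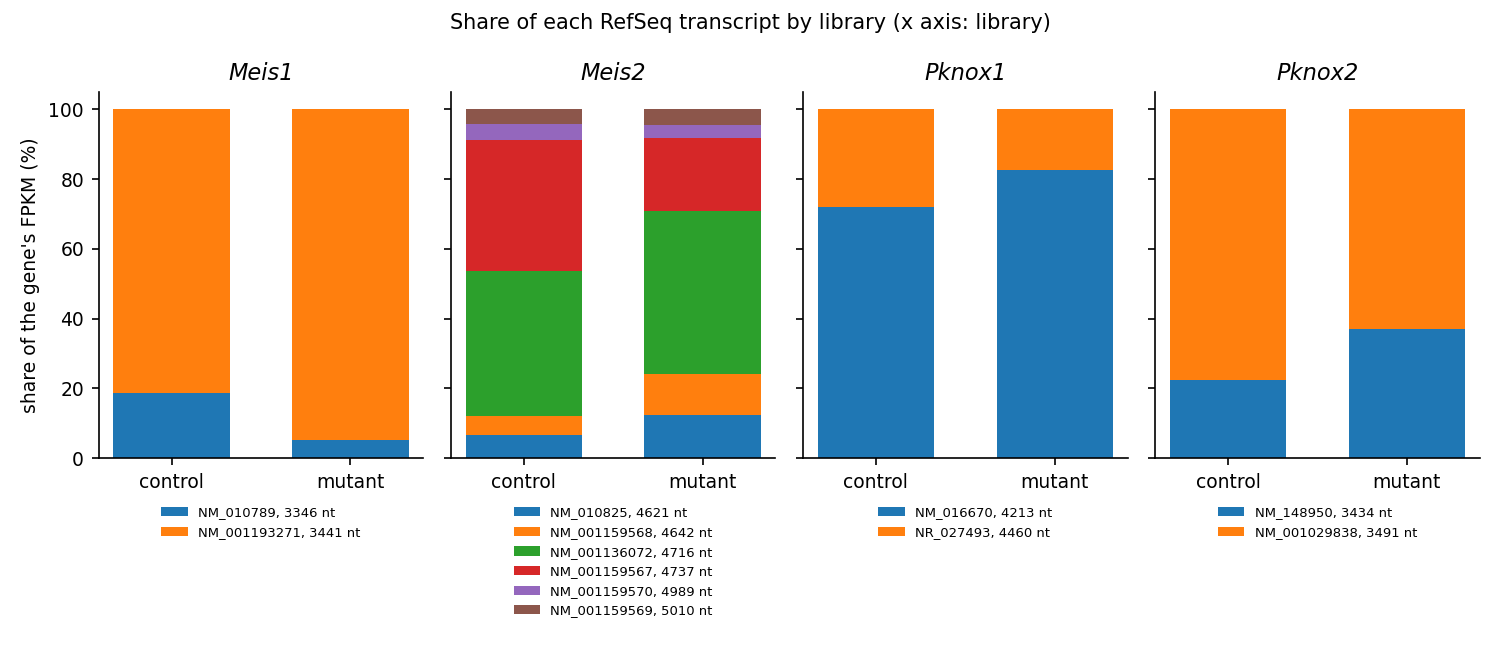
Share of each RefSeq transcript in the FPKM of its gene (y axis, percent) in the control and mutant library (x axis), for the 4 genes with several transcripts, each colour a transcript with its length. For Meis1 the transcript without the 95 nt exon (3346 nt) holds 18.5% in control and 5.12% in mutant tongue, whereas for Meis2 the forms without it (4621 and 4642 nt) together hold 12.1% and 24.1%.

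Both Pknox genes had a pair of rows whose shares differed as well. For Pknox1 the coding transcript NM_016670 had 6.31 and 6.55 FPKM, while NR_027493, whose accession prefix marks a non-coding RNA, had 2.47 and 1.39 FPKM. GENCODE M21 pairs both accessions with 1 coding model, so what sets the rows apart was not analysed here. The lower sum of Pknox1 lay in NR_027493, which held 28.1% of the gene in control and 17.5% in mutant tongue. For Pknox2 the rows differ by an exon before the first coding base (GRCm38 chromosome 9, 36987168 to 36987272), in the 5′ UTR, and by their first bases, and both encode 474 codons. The row with this exon had 7.88 and 6.60 FPKM, and the row without it had 2.27 and 3.90 FPKM, or 22.4% and 37.1% of Pknox2. With 8 to 11 reads over a base of these genes in either library, the Wilson intervals of the shares overlap for both.

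Differences of this size were common. Among 1995 genes with several transcripts and at least 5 FPKM in either library, the largest shift of any transcript's share between the libraries had a median of 5.47 percentage points. A shift of at least 10 points was seen in all 4 members with several transcripts and in 30.3% of the 1995 genes. The threshold of 10 points was chosen after the values were seen. At 20 points no member was past the threshold, and 11.1% of the genes were. The largest shifts were 16.7 points for Meis2, 14.8 for Pknox2, 13.4 for Meis1 and 10.6 for Pknox1, and larger ones were found in 15.3%, 18.3%, 21.7% and 28.4% of the genes. Genes with 6 transcripts, like Meis2, had a median of 10.8 points (26 genes), and those with 2 had 4.04 points (1293 genes). At least 10 points were reached by 50.0% of the genes with 6 transcripts and 23.7% of those with 2. The authors' tool estimated how reads are shared among transcripts, and its part in these shifts was not tested.

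**Figure D4:**
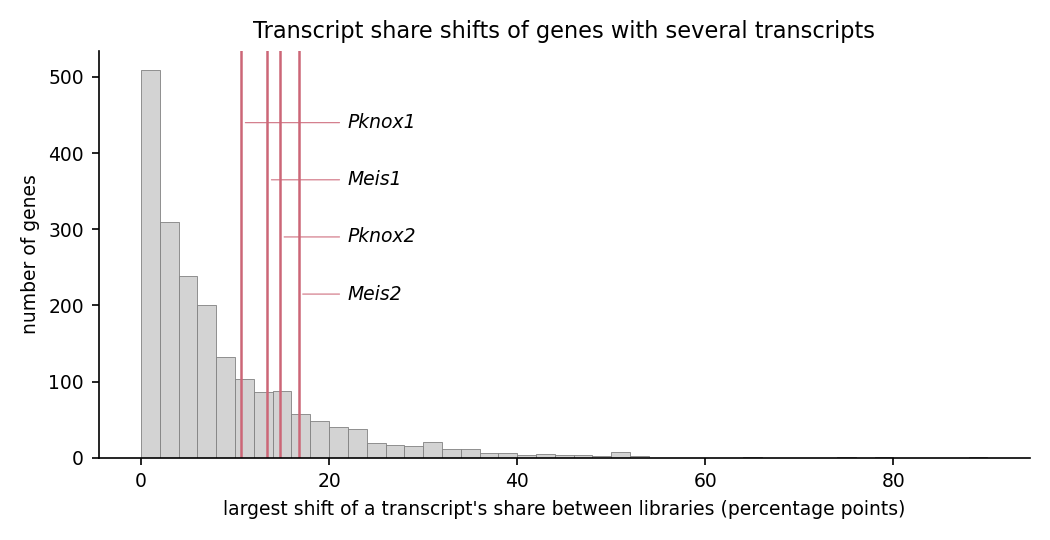
Number of genes (y axis) by the largest shift of a transcript's share between the libraries (x axis, percentage points), for 1995 genes with several transcripts, with lines at the 4 members. The members lie between 10.6 and 16.7 points, right of the median of 5.47 points, and 3 of them lie above the upper quartile of 12.0 points.

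The other genes of the TALE class and the partners of these cofactors were described from lists. The other TALE genes comprise the Iroquois genes, the tendon factor Mkx and the repressors Tgif1 and Tgif2. Of 9 such genes 6 were measured, and 4 of these were past 1.2-fold as higher and none as lower. The shares over all measured genes were 4.77% higher and 3.46% lower. Irx1 had 6.17 FPKM in control and 13.8 FPKM in mutant tongue, for a ratio of 2.24 (1.93 to 2.61), and Irx2 and Irx3 had ratios of 2.18 (1.83 to 2.62) and 2.11 (1.46 to 3.04), and Mkx had 1.60 (1.28 to 2.003). Tgif2, at 39.9 and 38.2 FPKM, had a ratio of 0.957 (0.903 to 1.01). The median log2 ratio of the 6 was 0.57, beside 0.04 for the 7 Meis, Pbx and Pknox genes.

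Most Hox genes of paralog groups 1 to 10, whose products bind DNA with Pbx, were low in this tissue. The highest of the list had 9.61 FPKM in control and 11.4 FPKM in mutant tongue. Of 30 listed, 9 were measured, and 9 were listed at 0 in both libraries. All 9 measured Hox genes were higher in the mutant library, with a median log2 ratio of 0.33. Among all 12383 measured genes, 6336 were higher and 6046 lower. Past 1.2-fold as higher were 7 of the 9 Hox genes, beside 4.77% of all measured genes. Hoxa4, Hoxa5 and Hoxd4 reached 1 FPKM in the mutant library alone, so given the filter they could only count as higher. All of these were among the 7 past 1.2-fold, and the median was the value of Hoxd4. Hoxb3 had 4.51 and 6.37 FPKM, for a ratio of 1.41 (1.23 to 1.66), and Hoxb4 had 1.51 (1.09 to 2.13). All 30 Hox genes summed to 32.5 FPKM in control and 41.6 FPKM in mutant tongue, whereas the 3 Pbx genes together came to 59.9 and 60.8 FPKM.

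Of 9 other genes whose products work with Pbx or Meis, 4 were measured, 1 of them past 1.2-fold as lower and none as higher. The shares over all measured genes were 3.46% lower and 4.77% higher. The T-cell leukemia homeobox gene Tlx1 had 6.83 and 5.46 FPKM, a ratio of 0.799 (0.669 to 0.951). The muscle factors Myod1 and Myog had ratios of 0.937 (0.876 to 1.001) and 1.05 (0.994 to 1.11), and Pbxip1, which encodes a Pbx-binding protein, had 10.04 FPKM in both. Among 7 genes reported downstream of Pbx or Meis in other tissues, 4 were measured. Meox1, a homeobox gene of paraxial mesoderm, had 10.9 and 13.9 FPKM, a ratio of 1.28 (1.14 to 1.44). Snai1 and Trp63 had ratios of 0.933 (0.841 to 1.04) and 0.968 (0.833 to 0.995), neither past 1.2-fold. The interval of Trp63 lay below 1, but it comes from reads summed over 8 transcripts (about 942 and 1050). It is not centred on the FPKM ratio of 0.968, so no difference was read from it.

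Retinoic acid, a vitamin A derivative, is known to induce Meis1 and Meis2 in embryonic cells, and its genes were split in direction. Of 18 listed, 17 were measured, 8 higher and 9 lower, with 4 past 1.2-fold in each direction and a median log2 ratio of −0.03. Past 1.2-fold among all measured genes were 4.77% as higher and 3.46% as lower. In either direction at any size, 6336 of all 12383 measured genes were higher and 6046 lower. Rarb, a receptor for retinoic acid, had 7.34 and 13.01 FPKM, a ratio of 1.77 (1.57 to 2.01). Aldh1a2, a synthesis enzyme, had 20.9 and 30.3 FPKM, for a ratio of 1.45 (1.34 to 1.58), while Aldh1a3, another synthesis enzyme, had 0.515 (0.396 to 0.658). The breakdown enzymes Cyp26a1 and Cyp26c1 lay lower, at ratios of 0.534 (0.365 to 0.783) and 0.202 (0.104 to 0.388). Cyp26c1, from about 51 and 13 reads, reached 1 FPKM in the control library alone.

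**Figure D5:**
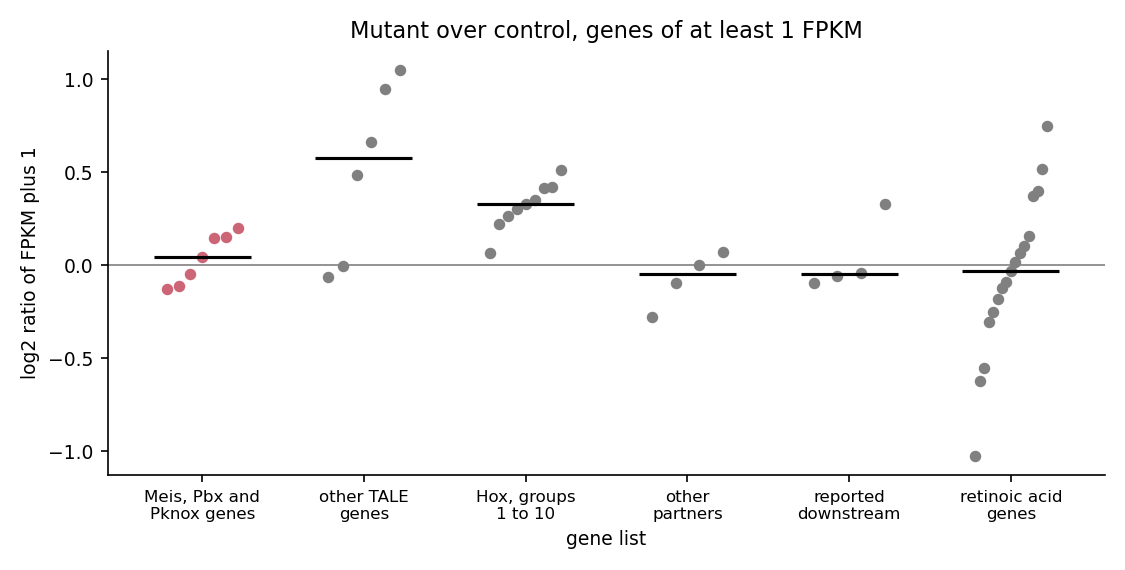
Log2 ratio of FPKM plus 1, mutant over control (y axis), for each gene of at least 1 FPKM in either library, by gene list (x axis), with a bar at each median. The 7 Meis, Pbx and Pknox genes lie close to 0 around a median of 0.04, while the 9 Hox genes lie above 0 around 0.33, where 3 of them passed the filter through the mutant library alone, and the retinoic acid genes spread to both sides.

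Markers of the cell types in the tongue were read beside these results. Neural crest mesenchyme genes, such as Pdgfra and Twist1, were present in both libraries and summed to 301 and 311 FPKM over 10 genes, and 12 skeletal muscle genes summed to 820 and 855 FPKM. Of these 12 muscle genes, 5 were higher and 7 lower, with a median log2 ratio of −0.026. Over the 12 cartilage markers the sums were 233 and 320 FPKM. All 12 were measured and higher, 10 of them past 1.2-fold, beside 4.77% of all measured genes. Of these 12, 2 reached 1 FPKM in the mutant library alone and could only count as higher, and both were among the 10 past 1.2-fold. Meis3, Pbx2 and Pknox1 had lower values in the mutant library, those of Meis3 and Pbx2 within counting error. Lower there too were the sums of several marker lists: neuron markers had sums of 44.6 and 34.8 FPKM, Schwann lineage markers 55.2 and 46.1, epithelium markers 140 and 124, and erythroid markers 1430 and 1178, each over 10 genes. Of the 8 measured neuron markers 5 were lower and 3 higher. Among these 8, 2 reached 1 FPKM in the control library alone and could only count as lower. Beside these marker counts, 6336 of all 12383 measured genes were higher and 6046 lower. Of the 8 measured Schwann lineage markers 6 were lower and 2 higher, and 1 reached 1 FPKM in the control library alone. All 6 measured erythroid markers were lower, and Hbb-y alone had 1022 and 827 FPKM of the erythroid sums. Endothelium and macrophage markers summed to 82.6 and 86.4 FPKM and to 25.4 and 28.0 FPKM. No marker was at 0 in both libraries. The part of these cell types in the differences of the Meis, Pbx and Pknox genes was not tested.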

How the data were processed

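For both libraries, of control and mutant tongue, the submitters' processing notes list TopHat 1.4.1, Bowtie 0.12.7 and build mm9. The deposited tables, per the file headers, give FPKM, coverage (a signal not scaled for depth), length and status for 28107 RefSeq transcript rows in a Cufflinks layout. Not given in the sources used here are the Cufflinks version, read length and strandedness. Row starts were counted from 1.

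Rows of 1 symbol were summed. A gene was counted as measured from 1 FPKM in either library upward, if all its rows had status OK (12383). Log2 ratios used a pseudocount of 1. Coverage times length had a median of 47.4 bases within a preset window of low values, for genes with 1 row of 1000 nt or more. This median was used as the worth of 1 read to estimate reads and intervals. The intervals were tested on simulated independent counts, which hold neither amplified reads nor reads shared among transcripts. Exons and sequences came from GENCODE M21 (GRCm38). Python 3.11.15, scipy 1.17.1 and pandas 2.3.3 were used. Members and lists were chosen with earlier results of these data known. All members are named, with up to 5 genes per related list by size of the log2 ratio, the 2 most abundant genes of a marker list that is named, and neighbouring gene models. A gene that this rule names is not reported here. Grouping rows by exon was chosen after the data were seen.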

Additional observations from a re-analysis of the deposited data

How the results depend on the processing

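The direction of all 8 genes and of Osr1 was the same with a pseudocount of 0.1, median centring, the TPM scale and quantile normalization, and for the 8 genes also with estimated reads. Only the use of the single row with the highest mean FPKM, which leaves out the other transcripts of a gene, moved log2 ratios past their counting intervals. They became 0.36 for Meis1, 0.31 for Meis2, −0.22 for Pknox2, where the sum gave 0.04, and 0.047 for Pknox1, where the sum gave −0.13. This setting put 2 members past 1.2-fold as higher (Meis1 and Meis2), a threshold of 1.1-fold put 3 there, and no filter on low values put 1 there (Pbx4), against 0 as reported. With the highest row, Meis1 ranked 2 and Meis2 ranked 3 by level in both libraries. The Hox median was 0.49 with a pseudocount of 0.1, 0.47 on the TPM scale and 0 with no filter. No paired analysis was possible because each genotype had 1 library, and no library could be left out in turn. Pbx4 rested on about 11 and 25 reads, and the transcript shares of the Pknox genes on 8 to 11 reads over a base.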

Other observations

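With 2 libraries, likeness of pattern amounts to likeness of level and ratio. By the distance in log2 of FPKM plus 1 over both libraries, the genes nearest to Meis2 were Nfib (39.6 and 44.3 FPKM in control and mutant) and Acta1 (39.0 and 43.9 FPKM). Abce1 (47.5 and 46.1 FPKM) and Cnot1 (47.0 and 45.9 FPKM) were nearest to Pbx2, and Repin1 (10.1 and 10.4 FPKM) and Cwc25 (10.2 and 10.5 FPKM) to Pknox2. Such neighbours were many, with 45 genes within a distance of 0.1 of Meis2, 107 of Pbx2 and 264 of Pknox2.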
